A study of Homo sapiens with 4 samples.

Results

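Annexins and S100 proteins are the families of calcium-binding proteins that link a rise in intracellular calcium to membranes, the cytoskeleton and secretion. They were read here in K562 cells, an established BCR::ABL1-positive line from human chronic myeloid leukemia, carrying either RUNX1::ERG or an empty vector. Members were taken by a rule on symbols, set with earlier results of these data known. It took protein-coding genes whose symbol is ANXA followed by digits or begins with S100A, plus S100B, S100P, S100Z and S100G. This gave 32 genes, 12 annexins and 20 S100 genes, of the 25702 genes counted in each library. All 4 libraries came from poly(A)-enriched RNA of K562 cells with no drug treatment: 2 replicates transfected with the LeGO-iG2 plasmid expressing the RUNX1::ERG fusion, and 2 replicates transfected with LeGO-iG2 alone as the control genotype. LeGO-iG2 also expresses green fluorescent protein, so both groups carry that gene. The transfection was transient and a single cell line was used. The paper states that its K562 protocol consistently transfected most of the cells. Whether transfected cells were sorted before RNA extraction is not given in the sources used here. The comparison asks what the fusion, which retains the DNA-binding domains of RUNX1 and ERG, does to transcription in a myeloid leukemia line.

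Annexins bind negatively charged phospholipids when calcium is present, through a conserved core of repeats and a variable N-terminal tail. S100 proteins are small EF-hand proteins that mostly work as dimers. Several of them dock on an annexin tail: S100A10 on annexin A2, S100A11 on annexin A1, and S100A6 on annexin A11. Annexin A1, annexin A2 and their S100 partners take part in vesicle traffic, membrane repair and cell-surface plasminogen activation, while S100A8, S100A9 and S100A12 are abundant in granulocytes and monocytes and act as alarmins once released.

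The study describes the replicates as biological, and the labels do not say whether they were separate cultures. If they were not, p-values measure only the spread between these libraries. Library totals ran from 59695387 to 82352144 counts. Even numbers made up 66.7% to 68.9% of gene counts between 1 and 10, as happens where each read of a mate pair adds to the count, so independent fragments may be fewer than these totals. ERG and RUNX1 were used to check the labels. The count of ERG was 4 in either control library and reached 80443 and 27218 with the fusion, and RUNX1 had 4736 and 3453 counts against 66232 and 28769. After scaling, ERG was 2.52 times higher in RUNX1::ERG replicate 1 than in replicate 2. Erythroid genes of K562 (GATA1, TAL1, TFRC, HBG1, HBG2, HBE1 and ALAS2) were all expressed, and of these TAL1 was called higher (197 and 197 against 323 and 308 normalized CPM, log2 fold change 0.68, edgeR adjusted p = 0.0246) and the others were not called. The summed normalized CPM of 7 platelet and megakaryocyte markers was 74.3 and 85 in the empty vector libraries and 491 and 429 with RUNX1::ERG (5 genes called higher), with GP9 at no more than 2 counts, and that of 9 monocyte and granulocyte markers from 8.92 to 11.4 to between 21.2 and 23.1, with ELANE at 10 counts or fewer and FCN1 at 2 or fewer. LYZ and CD14, the 2 genes of that list called higher, carried the latter sum, while FCGR3B, ITGAM and MPO had log2 fold changes of -1.43, -0.99 and -0.86 without a call. Sums for the endothelial list were 3.15 to 3.2 against 27.3 to 28.8, with KDR at 2 counts or fewer. PECAM1 and VWF, the 2 genes of that list called higher, carried this rise. The fibroblast sums were 6.19 to 6.35 against 22.1 to 24.8, with LUM at 0 and COL3A1 and DCN at 12 counts or fewer. COL1A1, the only gene of that list called, carried the rise (4.13 and 3.62 against 22 and 19.6 normalized CPM). COL1A2 had a log2 fold change of 0.11 without a call. The keratinocyte list went from between 371 and 387 to between 160 and 180, nearly all of it KRT10, with KRT14 and KRT6A at 0, and the lymphoid list from between 35.6 and 36.6 to between 23.2 and 25.2, with MS4A1 at 0. The part of these marker changes in the values below was not tested.

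Of the 32 members, 23 passed the filter on low counts and were tested, and 5 of these (21.7%) were called, at an adjusted p under 0.05 in edgeR's quasi-likelihood test (Benjamini-Hochberg adjustment over the tested genes), against 4.79% of the 15394 genes tested. S100A4, S100A16 and ANXA3 were higher with RUNX1::ERG (3 members, against 3.64% of all tested genes), and S100A11 and S100P were lower (2 members, against 1.15%). In 14 of the 23, or 60.9%, the RUNX1::ERG values lay wholly above or wholly below the controls, 12 above and 2 below. Of all tested genes, 47.2% were separated in either direction, and no share for a single direction was taken. The median log2 fold change of the tested members was 0.26, beside a value near 0 over all tested genes (-0.00167). A gene can pass the filter because one group is high, so these counts and the median describe the tested members and not the whole families. The families were chosen with earlier results of these data known, so the shares beside all tested genes are descriptions only. In bulk RNA, fewer cells expressing a gene and less RNA per cell cannot be told apart.

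**Figure D1:**
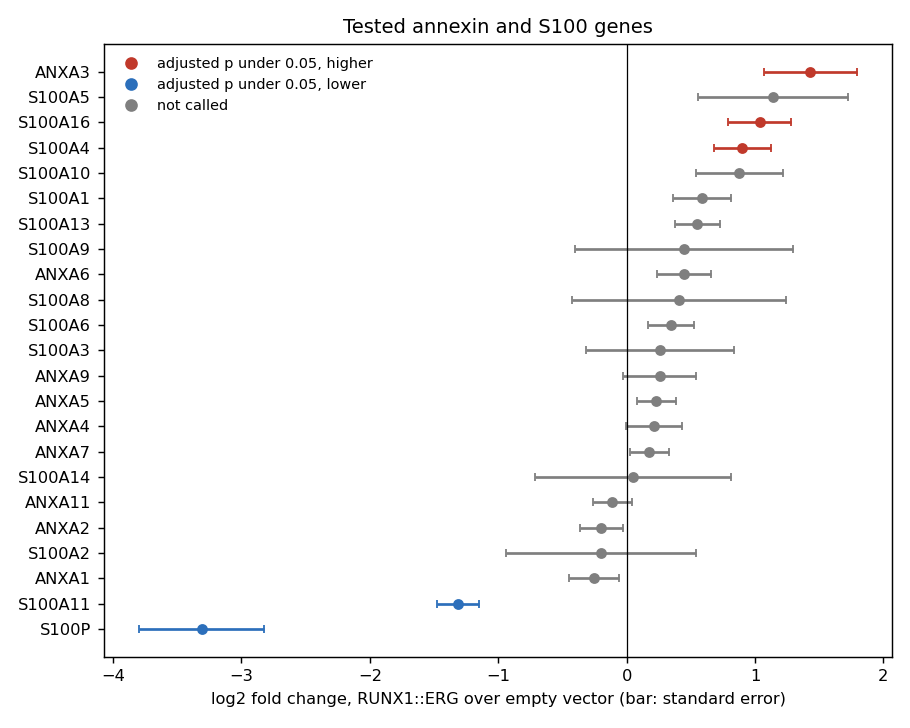
Log2 fold change of each of the 23 tested members (x axis), RUNX1::ERG over empty vector, with bars of 1 standard error from edgeR and 2 libraries per group. S100P at -3.31 and S100A11 at -1.32 lie below the others, and ANXA3, S100A16 and S100A4 are the 3 members called higher.

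S100A11, which binds the tail of annexin A1 and takes part in membrane repair and keratinocyte growth control, showed the most even fall. Its gene (NCBI gene 6282) has 3 exons in its canonical transcript and lies on the minus strand of chromosome 1 of GRCh37, from 152004982 to 152020383. Normalized CPM, CPM being counts scaled to a common library total by edgeR's TMM method, was 102 and 103 in the empty vector libraries and 38.2 and 44.1 with RUNX1::ERG, or 102 ± 0.951 and 41.1 ± 4.14 (mean and SD, n = 2 each). The replicates of each group lay close together and the groups were far apart. The level fell 2.49-fold, a log2 fold change of -1.32 ± 0.16 (SE) with an edgeR adjusted p of 0.00118. Leaving out each library in turn gave values from -1.43 to -1.22.

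S100P, a secreted ligand of the receptor AGER (RAGE) first purified from placenta, had the largest change of the families. It lies outside the S100 cluster, on the plus strand of chromosome 4 from 6695605 to 6698897 (NCBI gene 6286, 2 exons). Normalized CPM was 16.3 and 5.56 in empty vector replicates 1 and 2, and 1.36 and 0.821 with RUNX1::ERG, with means of 10.9 ± 7.56 and 1.09 ± 0.384 (SD, n = 2 each). Every RUNX1::ERG value was below every empty vector value, but the 2 empty vector libraries themselves differed 2.92-fold. The fitted fall was 9.92-fold, a log2 fold change of -3.31 ± 0.48 (SE) with an edgeR adjusted p of 0.00327. Empty vector replicate 1 set much of its size: the log2 fold change was -2.34 without that library and -3.89 without empty vector replicate 2, and it was -3.73 and -3 without RUNX1::ERG replicates 1 and 2. S100P was called in all 4 of these fits, each of which assumes that a lone library varies like the other group.

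S100A4 (metastasin, a binder of nonmuscle myosin linked to cell motility) was at 6.26 and 6.89 normalized CPM in the controls and at 11.9 and 12.7 with RUNX1::ERG, with means of 6.58 ± 0.447 and 12.3 ± 0.558 (SD, n = 2 each). The groups did not overlap, and the gap between them was several times the distance between replicates. The rise was 1.87-fold, a log2 fold change of 0.90 ± 0.22 (SE) with an edgeR adjusted p of 0.0456. The gene (NCBI gene 6275, chromosome 1, minus strand, 153516089 to 153522612, 3 exons) overlaps S100A3 on the same strand, so reads in the shared part cannot be assigned by strand. S100A3 had at most 29 counts in a library, and the value was 0.88 when both were added into 1 gene. The call of S100A4 was near the threshold, with adjusted p-values from edgeR of 0.0588 (log2 fold change 0.83) when empty vector replicate 1 was left out, 0.16 (0.95) when RUNX1::ERG replicate 1 was left out and 0.197 (0.84) when RUNX1::ERG replicate 2 was left out, and of 0.052 by limma voom.

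S100A16, a widely expressed S100 protein, was at 3.9 and 4.23 normalized CPM in the controls and at 7.97 and 8.71 with RUNX1::ERG, with means of 4.06 ± 0.229 and 8.34 ± 0.521 (SD, n = 2 each). The replicates lay close together and the groups did not overlap. Its gene (NCBI gene 140576, chromosome 1, minus strand, 153579362 to 153585621, 3 exons) rose 2.05-fold, a log2 fold change of 1.04 ± 0.25 (SE) with an edgeR adjusted p of 0.0403. Without RUNX1::ERG replicate 1 the log2 fold change was 1.10 and without replicate 2 it was 0.96, and edgeR's adjusted p was 0.143 and 0.196, so the call was lost in both fits.

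ANXA3, a phospholipid-binding annexin abundant in neutrophils, was the only annexin called. It lies on the plus strand of chromosome 4 from 79472901 to 79531605 (NCBI gene 306, 13 exons). Normalized CPM was 3.25 and 1.57 in the empty vector libraries and 5.74 and 7.26 with RUNX1::ERG, with means of 2.41 ± 1.19 and 6.5 ± 1.08 (SD, n = 2 each). The groups did not overlap, while the empty vector libraries differed 2.07-fold. The rise was 2.7-fold, a log2 fold change of 1.43 ± 0.36 (SE) with an edgeR adjusted p of 0.0487. Each library mattered: the log2 fold change was 2.04 when empty vector replicate 1 was dropped, 1.00 when empty vector replicate 2 was dropped, 1.59 when RUNX1::ERG replicate 1 was dropped and 1.24 when replicate 2 was dropped, and the last 2 fits lost the call (edgeR adjusted p = 0.0693 and 0.13), as did scaling by library totals alone (0.0685).

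The 5 called members did not follow the level of the fusion transcript within the RUNX1::ERG group. RUNX1::ERG replicate 1, with the higher ERG level, lay further from the empty vector libraries than replicate 2 in 1 of the 5, S100A11. S100P was lower, and S100A4, S100A16 and ANXA3 were higher, in replicate 2. In the empty vector group, too, S100P was lower and S100A4, S100A16 and S100A11 were higher in replicate 2, while ANXA3 was lower there. The part of replicate number in these orders was not tested. With 1 library at each level this is a description only.

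Because the fusion keeps the DNA-binding domains of an ETS and a RUNX factor, the sequence before the transcription start of each called member is given, 250 bases in all, from RefSeq on GRCh38.p14. The strand is that of the gene and capitals mark matches, on either strand, to the ETS-type letters CGGAAG or AGGAAG and to the RUNX-type letters TGTGGT.

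S100A11, chr1:152037005-152037254, minus strand: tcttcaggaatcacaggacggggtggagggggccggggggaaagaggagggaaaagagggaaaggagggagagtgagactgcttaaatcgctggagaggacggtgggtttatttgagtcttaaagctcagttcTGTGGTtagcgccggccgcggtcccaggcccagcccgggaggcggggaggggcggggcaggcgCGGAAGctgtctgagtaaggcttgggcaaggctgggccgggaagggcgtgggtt

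S100P, chr4:6693628-6693877, plus strand: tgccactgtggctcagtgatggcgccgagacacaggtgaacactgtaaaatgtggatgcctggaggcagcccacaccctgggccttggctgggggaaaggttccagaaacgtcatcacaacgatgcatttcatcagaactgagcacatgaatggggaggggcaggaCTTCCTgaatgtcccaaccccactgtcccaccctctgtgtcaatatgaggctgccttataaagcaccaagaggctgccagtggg

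S100A4, chr1:153545807-153546056, minus strand: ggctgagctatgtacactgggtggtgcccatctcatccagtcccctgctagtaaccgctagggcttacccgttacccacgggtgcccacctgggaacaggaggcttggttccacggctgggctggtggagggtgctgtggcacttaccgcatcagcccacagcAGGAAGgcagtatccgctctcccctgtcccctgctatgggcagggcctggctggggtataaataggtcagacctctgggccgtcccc

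S100A16, chr1:153613138-153613387, minus strand: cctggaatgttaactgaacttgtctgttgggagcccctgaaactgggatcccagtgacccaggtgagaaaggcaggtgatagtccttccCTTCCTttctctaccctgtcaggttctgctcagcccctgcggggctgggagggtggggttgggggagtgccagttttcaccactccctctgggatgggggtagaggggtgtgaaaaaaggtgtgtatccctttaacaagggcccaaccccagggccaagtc

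ANXA3, chr4:78551520-78551769, plus strand: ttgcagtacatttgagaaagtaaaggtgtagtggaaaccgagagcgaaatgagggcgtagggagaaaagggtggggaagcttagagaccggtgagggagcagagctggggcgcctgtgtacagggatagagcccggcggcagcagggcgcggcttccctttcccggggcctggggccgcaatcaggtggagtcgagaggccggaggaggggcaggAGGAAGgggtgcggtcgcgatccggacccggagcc

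Each of the 5 upstream stretches holds one ETS-type match, and only that of S100A11 holds a RUNX-type match, at position -117 from the start with the ETS-type match at -54. Over the full windows of 300 bases, from 250 before to 50 after the start, S100P has another ETS-type match at position 30 after the start, and the other RefSeq start of S100A16 also has an ETS-type match, 66 bases before it. All 6 windows of called members thus hold the ETS-type letters, which also stand in 24 of the 34 windows of tested members (70.6%) and in 50% of 21418 windows of protein-coding genes. RUNX-type letters are in 6 of the 34 windows (17.6%) and in 11.3% of all windows. AP-1 letters (TGANTCA) are in 4 (11.8%, against 6.1% of all windows), the GC box (GGGCGG) in 14 (41.2%, against 57%) and TATAAA in 9 (26.5%, against 9.3%), with the TATA letters 28 bases before the start of S100P and 31 before that of S100A4. The 34 windows belong to 23 genes and some overlap. RefSeq windows were found for 29 of the 32 members. A match is a string of letters and not a binding site.

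Among the annexins, 4 genes made up nearly all of the signal. ANXA1, ANXA2, ANXA7 and ANXA11 held between 89.4% and 92.4% of the annexin counts in each library, and all annexins together held between 0.121% and 0.142% of all counts. ANXA1, the glucocorticoid-induced lipocortin that acts on formyl peptide receptors, was at 564 and 412 normalized CPM in the controls and at 348 and 470 with RUNX1::ERG. Its groups overlapped, and its log2 fold change was -0.25 ± 0.19 (SE) with an edgeR adjusted p of 0.56. ANXA2, which carries S100A10 to the plasma membrane and binds plasminogen there, was at 297 and 385 against 274 and 321 normalized CPM. The values again overlapped, with a log2 fold change of -0.20 ± 0.17 (SE) with an edgeR adjusted p of 0.623. Its processed copy ANXA2P2 had 940 to 1362 counts per library, and how reads shared by both were counted is not given in the sources used here.

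ANXA11, which tethers RNA granules to lysosomes, was at 267 and 248 against 252 and 224 normalized CPM, a log2 fold change of -0.11 ± 0.15 (SE) with an edgeR adjusted p of 0.779. ANXA7 (synexin, a membrane fusion protein) was at 176 and 178 against 187 and 214, a log2 fold change of 0.18 ± 0.15 (SE) with an edgeR adjusted p of 0.617. ANXA5, the protein used to stain phosphatidylserine on dying cells, was at 76.6 and 73.8 against 85.2 and 91.4, at 0.23 ± 0.15 (SE) with an edgeR adjusted p of 0.493. ANXA7 and ANXA5 were slightly higher in both RUNX1::ERG libraries, by less than the fitted test could call, and ANXA11 overlapped between groups.

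ANXA6, a large annexin with a doubled core, was at 12.5 and 15.9 against 17.9 and 20.7 normalized CPM, a log2 fold change of 0.44 ± 0.21 (SE) with an edgeR adjusted p of 0.303. ANXA4 was at 9.08 and 8.75 against 10.9 and 9.83, and ANXA9, an annexin with altered calcium-binding sites, was at 5.48 and 3.72 against 5.6 and 5.38. Their log2 fold changes were 0.21 and 0.26, and neither passed the test. Of the 9 tested annexins, 5 (ANXA3, ANXA4, ANXA5, ANXA6 and ANXA7) lay above both controls in each RUNX1::ERG library, and none lay below them in both, where 47.2% of all tested genes were separated in one direction or the other, and ANXA3 alone of the 5 was called. ANXA10 and ANXA13, annexins of the digestive tract, had no count in any library, and ANXA8 had 1 count in 1 library. A count of 0 allows up to 3 counts, or 0.0503 CPM in the smallest library, a limit that covers counting error only.

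Of the 20 S100 genes, 16 lie on chromosome 1 within 1649 kb (151955391 to 153604515 of GRCh37), a cluster shared with epidermal genes, and 13 of these were tested. Within the part from S100A6 to S100A1 (153507075 to 153604515), all 9 genes were tested, 8 had a log2 fold change above 0, 6 were higher in both RUNX1::ERG libraries, 2 were called higher (S100A4 and S100A16) and none was called lower. Over all tested genes, 47.2% were separated in either direction and 3.64% were called higher. Of the 8, S100A14 (0.05, standard error 0.76) and S100A3 (0.26, standard error 0.58) were too near 0 to give a direction. The median log2 fold change of the 9 was 0.55, beside -0.00167 over all tested genes. This part was not planned beforehand and its limits leave out S100A11, so its counts and median are descriptions only. Neighbouring genes are not independent of each other, and some of these overlap and may share reads. S100A11, the one member of the chromosome 1 cluster called lower, lies at the other end of it, next to S100A10. These 2 neighbours differed in direction of estimate, -1.32 for S100A11 and 0.88 for S100A10. Of the 46 other genes with a position inside the span, 3 passed the filter (SPRR2D, SPRR2F and PGLYRP4) and none was called.

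**Figure D2:**
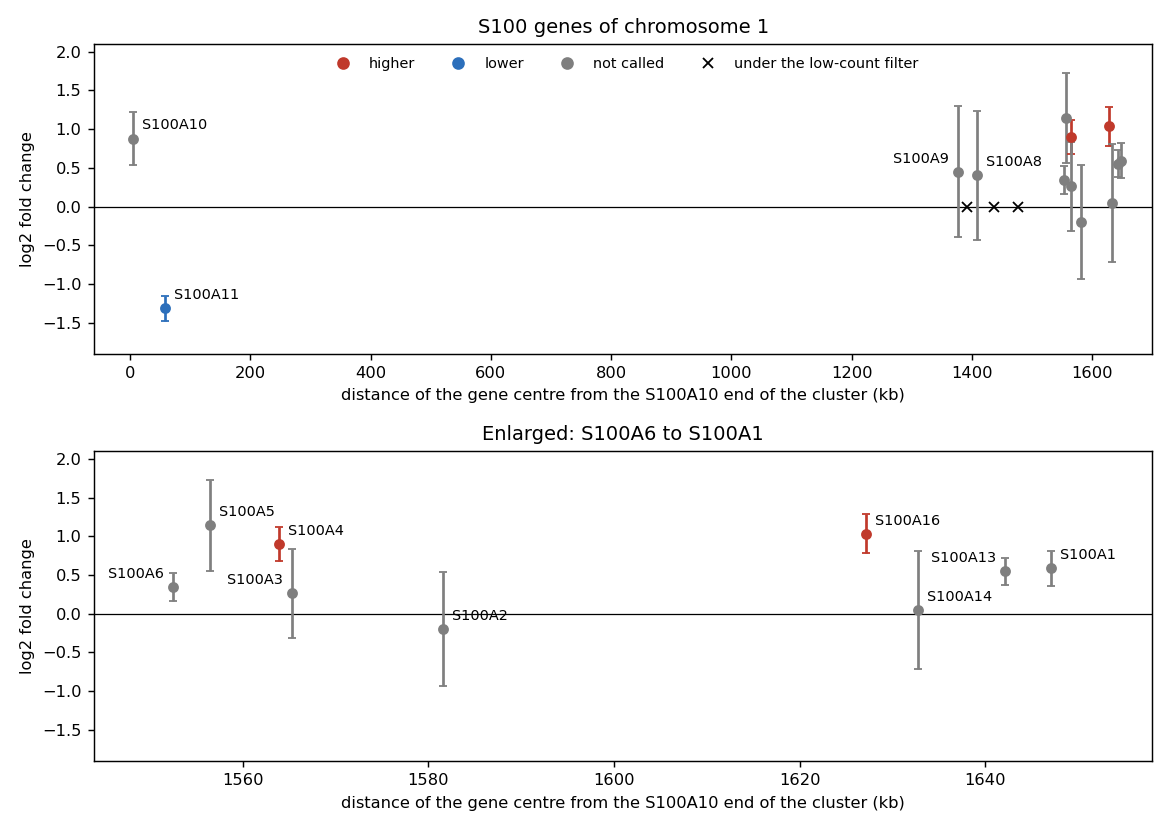
Log2 fold change with bars of 1 standard error (y) of the S100 genes of chromosome 1 against the distance of the gene centre from the S100A10 end of the cluster in kb (x), with the S100A6 to S100A1 part enlarged in the lower panel. Crosses at 0 mark genes under the low-count filter and carry no fold change, and S100A11 at -1.32 is the only gene called lower. In the enlarged part 8 of the 9 genes lie above 0, S100A14 and S100A3 by less than 1 standard error. The limits of that part were not planned beforehand.

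S100A6 (calcyclin), a partner of annexins and of the ubiquitin ligase adaptor CACYBP, was at 24 and 27.9 normalized CPM in the controls and at 32 and 33.9 with RUNX1::ERG. Its log2 fold change was 0.34 ± 0.18 (SE) with an edgeR adjusted p of 0.363. S100A13, which takes part in the release of FGF1, a growth factor without a signal peptide, was at 25 and 24.6 against 37.1 and 35.5, a log2 fold change of 0.55 ± 0.17 (SE) with an edgeR adjusted p of 0.108. S100A1, known from calcium handling in heart muscle, was at 18.8 and 13.1 against 26.3 and 21.6, at 0.59 ± 0.23 (SE) with an edgeR adjusted p of 0.193. All 3 were higher in both RUNX1::ERG libraries, and none passed the threshold. With a replicate block, S100A13 (adjusted p = 0.0383) and S100A1 (0.0395) passed in edgeR, and S100A1 also passed without empty vector replicate 1 (log2 fold change 0.87, adjusted p = 0.0164).

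S100A1 (plus strand, 153600402 to 153604515) and S100A13 (minus strand, 153591263 to 153603836) overlap on opposite strands. The strand setting of the counting is not given in the sources used here, so the share of each in these reads cannot be told apart. Added into 1 gene they had a log2 fold change of 0.57 (edgeR adjusted p = 0.0923).

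The other S100 genes of the cluster were near the limit of detection. S100A5, a calcium-binding protein of olfactory neurons, had 10 and 17 counts with the empty vector and 39 and 32 with RUNX1::ERG, a log2 fold change of 1.14 (standard error 0.58) that did not pass the test. S100A3, a protein of the hair cuticle, had 18 to 29 counts per library, and S100A2, a keratinocyte gene, had 6 to 24. S100A14 had 28 and 6 counts with the empty vector and 26 and 18 with RUNX1::ERG. These last 3 overlapped between groups, with log2 fold changes of 0.26, -0.20 and 0.05.

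The alarmins of myeloid cells overlapped between the groups. S100A8 had 28 and 10 counts in empty vector replicates 1 and 2, and 57 and 8 in RUNX1::ERG replicates 1 and 2. Its partner S100A9 had 24 and 4 counts, and 37 and 12. In both genes the replicate 1 libraries of both groups were above the replicate 2 libraries, and the log2 fold changes between groups were 0.41 (standard error 0.83) and 0.45 (standard error 0.85), with neither past the test. MPO, the granulocyte peroxidase, had 19 and 4 counts with the empty vector and 14 and 2 with RUNX1::ERG, the same order by replicate number, while ITGAM had 6 and 19 against 13 and 2. Their part in the S100A8 and S100A9 counts was not tested. S100A12 had at most 4 counts in a library and S100A7A at most 10. S100A7 (psoriasin) and S100B, a glial and melanocytic gene, had none, S100G had 1 count in 1 library, and S100Z had 3 to 7 counts.

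Annexins and S100 genes were then set side by side, with levels per kilobase of the canonical transcript so that genes can be compared. ANXA2 was at 191 and 248 normalized CPM per kilobase with the empty vector, and S100A10, its light chain, at 2.18 and 1.9. ANXA2 was thus 87.8 and 130 times S100A10 in these libraries. With RUNX1::ERG the ratio was 48.7 and 53.4. The ranges of the groups did not overlap, and S100A10 itself went from 1.46 and 1.28 to 2.43 and 2.6 normalized CPM, a log2 fold change of 0.88 ± 0.34 (SE) with an edgeR adjusted p of 0.193 that did not pass. S100A10 had between 88 and 205 counts per library. ANXA2 overlapped between groups and neither gene was called, so the separation of their ratio is a description only.

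For ANXA1 and S100A11 the ratio per kilobase was 2.23 and 1.61 with the empty vector and 3.66 and 4.29 with RUNX1::ERG, without overlap between groups. ANXA1 itself overlapped between groups, so this separation restates the fall of S100A11 given above and is no further result. S100A11 was the highest S100 gene per kilobase in both empty vector libraries, at 181 and 183 normalized CPM per kilobase. With RUNX1::ERG it was at 67.9 and 78.2, beside 73.8 and 78.1 for S100A6 and 77.8 and 74.5 for S100A13, so these 3 could no longer be ordered beyond the spread between libraries. The ratio of ANXA11 to S100A6 was 0.715 and 0.572 against 0.507 and 0.426, lower in both RUNX1::ERG libraries. Neither ANXA11 nor S100A6 was called, so this is also a description only. ANXA5 was also set beside S100A6, without taking them as docking partners. The ratio of ANXA5 to S100A6 was 0.844 and 0.7 against 0.704 and 0.714, and here the groups overlapped. A ratio of transcripts says nothing of the proteins, and with 2 libraries per group the smallest two-sided p of an exact permutation test is 0.333.

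Genes that act with these families were read from 5 lists of 56 genes, chosen with earlier results of these data known. Of the 56, 38 were tested. Of these 38, 4 (10.5%) passed the test, 2 higher and 2 lower, against 4.79% of all tested genes called, 3.64% higher and 1.15% lower, and the median log2 fold change was 0.08. Of 8 receptors of annexins and S100 proteins, 5 were tested. Of these, 1 was called higher and 1 lower, against 3.64% and 1.15% of all tested genes. FPR3, a formyl peptide receptor, rose from 0.266 and 0.51 to 2.55 and 2.99 normalized CPM, a log2 fold change of 2.82 ± 0.43 (SE) with an edgeR adjusted p of 0.00449. CD33, a myeloid sialic acid receptor that S100A9 can engage, fell from 5.05 and 3.55 to 1.09 and 1.02, a log2 fold change of -2.02 ± 0.34 (SE) with an edgeR adjusted p of 0.00741. FPR2, the main receptor of annexin A1, had 0 counts in both empty vector libraries and 12 and 16 with RUNX1::ERG. It was not called (edgeR adjusted p = 0.0511) and passed the low-count filter through the RUNX1::ERG libraries alone, so its values are descriptions only. In the other lists MYOF, NUCB2 and HLTF also lay close to the threshold without a call (edgeR adjusted p = 0.059, 0.0596 and 0.0623). AGER, the receptor of S100P, had at most 9 counts, FPR1 at most 4 and TLR4 at most 2.

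In the list of annexin A2 and S100A10 partners and the plasminogen system, 1 of 12 tested genes was called, against 4.79% of all tested genes. TRPV6, a calcium channel brought to the membrane by S100A10 and annexin A2, fell from 1.21 and 1.42 to 0.368 and 0.362 normalized CPM, a log2 fold change of -1.85 ± 0.45 (SE) with an edgeR adjusted p of 0.0428. AHNAK, the giant scaffold bound by that complex, was at 115 and 72.6 against 94.1 and 134, and overlapped between groups. None of 11 tested genes for membrane repair and penta-EF-hand proteins was called, with a median log2 fold change of 0.21. Of 10 other calcium sensors tested, 1 was called, against 4.79% of all tested genes. Calbindin (CALB1), an EF-hand calcium buffer, rose from 27.6 and 31.8 to 116.5 and 147 normalized CPM, a log2 fold change of 2.15 ± 0.18 (SE) with an edgeR adjusted p of 0.000109. The 7 S100 fused-type proteins, the large epidermal relatives encoded in the same cluster on chromosome 1, had at most 4 counts in a library and were not tested.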

How the data were processed

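WTS libraries from poly(A)-enriched RNA were analysed. For each library, unnormalized gene counts under NCBI gene numbers were deposited by the authors. Methods and processing notes name paired-end reads, hg19, HISAT2 2.2.1 and featureCounts 2.0.1. Annotation, strand setting and the counting of mates are not given in the sources used here. Gene numbers were joined to symbols of RefSeq (GRCh38.p14), matching 92.2% of genes. Positions and canonical transcript lengths are those of GENCODE v44 on GRCh37.

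RUNX1::ERG was compared with the empty vector in R 4.3.3 with edgeR 4.0.16: TMM scaling, its filter on low counts, the quasi-likelihood test without a replicate block, Benjamini-Hochberg adjustment over 15394 genes and a threshold of 0.05. The standard error is the log2 fold change divided by the square root of F. The procedure was tested on simulated counts with independent libraries and the same dispersion for every gene, so that test does not cover how these libraries vary. Alternatives were other scalings and filters, DESeq2 1.42.0, limma 3.58.1 voom, a replicate block, halved counts, leaving out each library and, added after the data were seen, summed counts of overlapping genes.

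Members, partner lists and motifs were chosen with earlier results of these data known. Values in each library were given for tested members, full statistics for called members and any whose mean reached 10 CPM, and from each partner list the called genes (at most 4) and AHNAK. Other genes were named after their values were seen. No protein sequences were used here.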

Additional observations from a re-analysis of the deposited data

How the results depend on the processing

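With a library left out, the lone library of a group is assumed to vary like the other group. The count of called genes, 737 with 76% higher, was 1500 without a filter (64.1% higher), 1194 by the DESeq2 Wald test and 1733 with the replicate block (62.4% higher), and ran from 354 to 1355 with a library left out, with 55.8% higher without empty vector replicate 2. The count of called members, 5, ran from 2 to 5 with a library left out and was 2 without either RUNX1::ERG library, and with the replicate block it was 7. No source ties equal replicate numbers to a common batch, so they were not used as pairs, although across genes the deviations of libraries with the same number had a correlation of 0.349. Called partner genes, 4, were 9 without a filter, 8 by DESeq2 and 10 with the replicate block, and ran from 4 to 9 with a library left out. The cause was not tested. The settings that kept all libraries gave 181 values of members, among them the sums of S100A1 with S100A13 and of S100A4 with S100A3. Of these values, 177 kept direction and side of the threshold, 2 lost a call (ANXA3 and S100A4) and 2 gained one (S100A1 and S100A13). Of 92 with a library left out, 76 kept both, 7 lost a call, 1 gained one and 8 turned sign. The last were ANXA2 (from -0.37 to 0.0027), S100A14 (from -0.73 to 1.70), S100A2 (from -1.34 to 0.39), S100A8 (from -1.42 to 1.48) and S100A9 (from -0.42 to 2.40), none of them called.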
